A study of Mus musculus with 30 samples.

Results

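Potassium channel genes were taken as the genes of the count table whose symbol is Kcn followed by letters and a number, which is how mouse nomenclature names the subunits of potassium channels. Of the 25400 genes in the table, 90 were included, and 1 further symbol of that form was not analysed here. They were measured by poly(A) RNA sequencing in neural progenitor cells (NPCs) derived from mouse embryonic stem cells (ESCs), in 24 libraries from 8 lines with 3 libraries each. The study asked which parts of the methyl-CpG-binding proteins MBD2 and MBD3, which are alternative members of the chromatin-remodelling NuRD complex, allow ESCs without Mbd3 to differentiate towards neurons.

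WT was the ESC line labelled wild type and Mbd3 KO carried a targeted deletion around the second and the third exon of Mbd3. The other 6 lines were Mbd3 KO cells with a construct under the strong, ubiquitous CAG promoter at 1 genomic site, so that they shared the loss of endogenous Mbd3 and kept endogenous Mbd2. MBD3a carried full-length MBD3 and MBD3a_delMBD the same protein without its methyl-CpG-binding domain. MBD2a carried full-length MBD2, MBD2a_delGR lacked the glycine-arginine-rich stretch near the N-terminus, MBD2a_R181C had a substitution in the methyl-CpG-binding domain, and MBD2t was the short isoform without the C-terminal coiled coil. According to the study, libraries came from individually derived clones except those of MBD2t, which repeat a single clone, so the spread within MBD2t is technical. The columns used for MBD2a_R181C name an arginine-to-cysteine mutant of MBD2a at another position, and the study's text gives yet another. They were assigned because no other RNA-seq line was such a mutant. In every sentence below, the 3 values of a line follow the order of the count table.

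The libraries held 27993858 to 49392806 counts, with a median of 36797095. Mbd3 itself measured 154.7, 149.0 and 156.9 CPM (reads scaled to a common library size) in WT and 34.2, 73.8 and 69.1 CPM in Mbd3 KO, and counts per gene do not show from which exons these reads came. In MBD3a it measured 193, 168 and 198 CPM, and in MBD3a_delMBD 423, 496 and 426 CPM, so these lines differed in Mbd3 RNA. Mbd2 measured 40.8, 50.5 and 43.9 CPM in WT, 65.3, 64.3 and 70.9 CPM in Mbd3 KO and 87.2, 86.3 and 67.0 CPM in MBD2a, where the third library lay within the range of Mbd3 KO. It reached 280 to 700 CPM in MBD2a_delGR, 253 to 326 CPM in MBD2a_R181C and 335 to 356 CPM in MBD2t. As a check of the label, neural progenitor markers summed to 1556 to 1848 CPM in WT libraries, to 224 to 345 in those of Mbd3 KO, to 249 to 477 in MBD2a and to 319 to 325 in MBD2t. Neuron markers summed to 1660 to 3673 CPM in WT libraries, to 120 to 279 in those of Mbd3 KO, to 69.6 to 252 in MBD2a and to 190 to 215 in MBD2t. Pluripotent cell markers summed to 25.9 to 133 CPM in WT against 305 to 860 CPM in Mbd3 KO. Trophoblast markers summed to 26.4 to 56.9 CPM in WT against 647 to 858 CPM in Mbd3 KO. All 10 neural progenitor and 12 neuron markers tested were called lower and all 8 pluripotent and 8 trophoblast markers higher in Mbd3 KO, and the part of this change of cell types in the potassium channel results was not tested. Extraembryonic endoderm markers were called higher for 2 of 9, cardiac muscle markers for 3 of 6 and endothelial markers for 2 of 6, with 0 lower in each list, and mesenchyme markers had 2 higher and 3 lower of 9. The third WT library stood apart, with a chi-square of counts per gene of 180 and 155 against the other WT libraries, which had 23.5 between them. Its neuron markers summed to 1660 CPM, against 3673 and 3210 CPM in the first and the second WT library, and Kcnc1 and Kcnd2 were also lowest there among WT libraries. In such bulk samples, fewer cells of a type and less RNA per cell cannot be told apart.

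A potassium channel is built from pore-forming subunits that let potassium leave or enter the cell down its gradient, and most channels set the resting potential or end an action potential. The voltage-gated families Kcna, Kcnb, Kcnc, Kcnd, Kcnh and Kcnq open on depolarisation, the families Kcnf, Kcng, Kcns and Kcnv are electrically silent alone and modify Kcnb channels, Kcnj genes encode inward rectifiers, Kcnk genes encode the two-pore-domain channels that carry leak current, and Kcnma, Kcnn, Kcnt and Kcnu encode channels that mostly open with intracellular calcium or sodium. Kcnab, Kcne, Kcnip and Kcnmb encode auxiliary subunits. Neurons express many voltage-gated channels, whose mix sets their pattern of firing.

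By these roles the 90 genes fell into 30 voltage-gated pore subunits, 10 silent modifiers, 15 auxiliary subunits, 14 inward rectifiers, 13 two-pore-domain channels and 8 calcium- and sodium-activated channels. Reads were found for 89 of them, Kcna10 being the exception with 0 reads in all 24 libraries. The filter on low counts kept 74 (82.2%), against 65.3% of all genes. Passed were 28 of 30 voltage-gated, 9 of 10 silent, 11 of 15 auxiliary, 10 of 14 inward rectifier, 8 of 13 two-pore-domain and 8 of 8 calcium- and sodium-activated genes. The 16 that did not pass were Kcna10, Kcna4, Kcne2, Kcne4, Kcnip4, Kcnj1, Kcnj13, Kcnj16, Kcnj6, Kcnk13, Kcnk15, Kcnk18, Kcnk4, Kcnk7, Kcnmb3 and Kcnv2, none of which had more than 99 reads over all libraries. A level of at least 1 CPM in all 3 libraries of a line was reached by 41 genes in some line and by 30 in WT, and 7 reached 10 CPM in every WT library. Of the 74 that passed, 25 were not above the filter's cutoff of 0.272 CPM in all WT libraries and could pass through other lines, so counts over the 74 are given as descriptions.

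To show the regulatory sequence of genes that moved in opposite directions, the 250 bases upstream of the annotated start are printed for the 2 largest falls and the 2 largest rises in Mbd3 KO among the 10 largest rises and 10 largest falls of genes whose log2 CPM averaged 0 or more, where the RefSeq table holds a single promoter, 5′ to 3′ on the gene's strand, in build GRCm38.p6, with the CG dinucleotides that MBD2 can bind when methylated in capitals.
Kcnh4, which fell, chr11:100759779-100760028, minus strand: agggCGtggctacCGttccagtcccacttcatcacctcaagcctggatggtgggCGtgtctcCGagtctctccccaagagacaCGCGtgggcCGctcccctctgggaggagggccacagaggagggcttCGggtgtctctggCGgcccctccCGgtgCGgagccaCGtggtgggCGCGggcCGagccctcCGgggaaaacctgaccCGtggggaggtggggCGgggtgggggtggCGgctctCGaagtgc
Kcnh2, which fell, chr5:24329592-24329841, minus strand: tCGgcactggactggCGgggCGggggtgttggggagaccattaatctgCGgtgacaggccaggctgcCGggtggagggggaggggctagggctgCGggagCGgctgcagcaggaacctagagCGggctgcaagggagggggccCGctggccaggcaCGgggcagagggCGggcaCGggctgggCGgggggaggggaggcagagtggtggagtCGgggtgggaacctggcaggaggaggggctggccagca
Kcnd2, which rose, chr6:21215096-21215345, plus strand: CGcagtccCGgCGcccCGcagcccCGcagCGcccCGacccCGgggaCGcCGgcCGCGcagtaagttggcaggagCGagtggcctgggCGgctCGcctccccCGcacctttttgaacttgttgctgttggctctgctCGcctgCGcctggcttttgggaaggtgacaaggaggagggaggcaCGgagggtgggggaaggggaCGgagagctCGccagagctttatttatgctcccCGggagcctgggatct
Kcnj4, which rose, chr15:79505242-79505491, minus strand: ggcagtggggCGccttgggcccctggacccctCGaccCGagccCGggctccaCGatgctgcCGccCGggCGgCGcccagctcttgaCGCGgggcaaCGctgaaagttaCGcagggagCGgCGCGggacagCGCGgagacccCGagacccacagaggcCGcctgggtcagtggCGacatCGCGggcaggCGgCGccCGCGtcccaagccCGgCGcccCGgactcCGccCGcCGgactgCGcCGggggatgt

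The windows hold 20 CGs for Kcnh4, 14 for Kcnh2, 22 for Kcnd2 and 35 for Kcnj4. CG reads the same on both strands, and for genes with several promoters the window with most CGs was taken. Promoters were matched for 67 of the 90 potassium channel genes, with a median of 10 CGs in 250 bases, against a median of 6 over the 27025 genes of the table. At least 1 CG was present for 95.5% of the matched potassium channel genes and 92.3% of all genes, and at least 10 for 55.2% and 40.2%. Among potassium channel genes called in Mbd3 KO, the median was 20 CGs over 14 that rose and 17 over 14 that fell, and it was 9 over 24 tested genes that were not called. The same medians were not taken over all called and uncalled genes, so this contrast cannot be read as particular to potassium channel genes. The 15 matched genes that did not pass the filter had a median of 7 CGs. These are letters of the reference, and the methylation of these windows was not measured here.

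Mbd3 KO against WT asked which genes depend on MBD3 when ESCs become NPCs. Of the 74 genes tested, 39 were called (52.7%), 20 higher and 19 lower, against 33.1% of all 16582 genes tested (19% higher, 14.1% lower), a gene being called at an adjusted p under 0.05 and a change of more than 1 on the log2 scale in edgeR. Over all listed genes the shares were 43.3% of 90 against 21.6% of 25400. Among the 49 that were above the cutoff in every WT library, 12 were higher and 17 lower, and among the other 25 tested, 8 were higher and 2 lower. Those 25 could pass the filter through lines where they are high, which favours rises. The same split over all genes is not given here, so it cannot be read as particular to potassium channel genes. The median log2 fold change was 0.19 over the tested potassium channel genes and -0.03 over all genes tested. Without the third WT library 18 were higher and 22 lower. Without each library in turn the number called was 31 to 40, and 28 of the 39 were called under every alternative that tested them.

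The classes moved in different proportions. Of 28 voltage-gated pore subunits, 6 were higher and 11 lower, with a median of -0.30 on the log2 scale. Of 9 silent modifiers, 4 were higher and 1 lower, with a median of 1.20. The counts were 3 higher and 2 lower of 11 auxiliary subunits (median 0.17), 3 and 1 of 8 calcium- and sodium-activated channels (median 0.22), 2 and 1 of 10 inward rectifiers (median 0.38), and 2 and 3 of 8 two-pore-domain channels (median -0.12). Differences between classes were not tested.

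**Figure D1:**
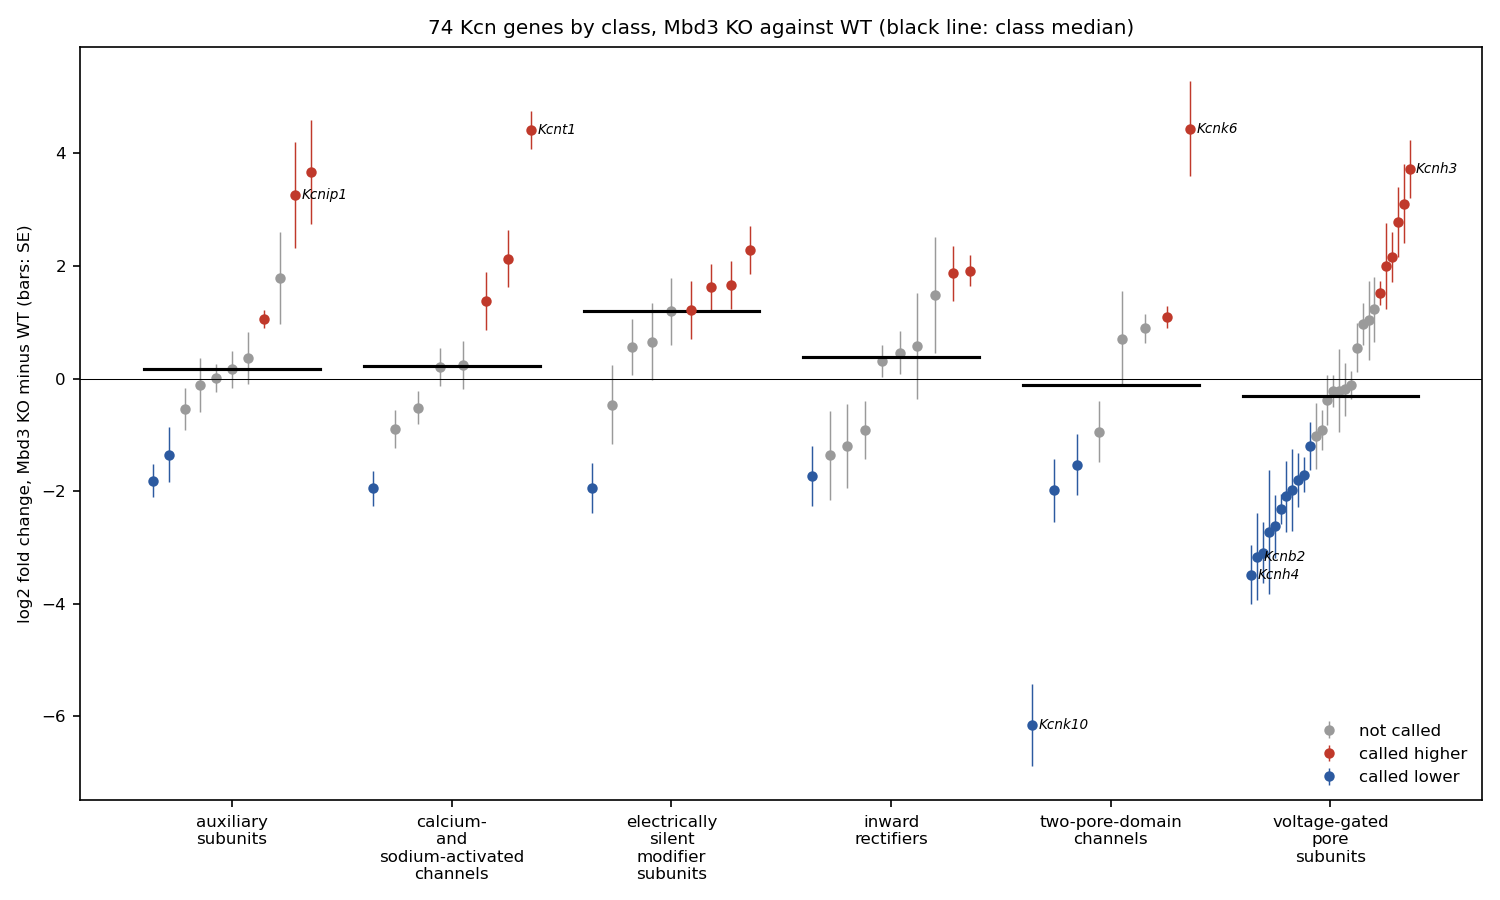
Log2 fold change of each of the 74 tested potassium channel genes in Mbd3 KO against WT (points, with SE bars; 3 libraries per line), by class on the horizontal axis; black lines are class medians and names mark called genes with large changes that the text describes. Voltage-gated pore subunits spread from Kcnh4 at -3.49 to Kcnh3 at 3.72, and the lowest and the highest of all genes are the two-pore-domain channels Kcnk10 at -6.16 and Kcnk6 at 4.44.

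Levels between genes were compared per length, as CPM per kilobase of annotated exon. Summed over all 90 genes, this level was 69.5 to 90.2 in the WT libraries and 85.2 to 87.4 in Mbd3 KO, so the total overlapped between the lines while its make-up differed. Voltage-gated pore subunits summed to 30.3 to 40.7 CPM per kb in WT and 15.7 to 20.5 in Mbd3 KO, and two-pore-domain channels to 14.9 to 16.5 in WT and 32.6 to 41.7 in Mbd3 KO. Inward rectifiers summed to 4.88 to 5.85 CPM per kb in WT and 10.8 to 11.2 in Mbd3 KO. None of these 3 sums overlapped between the lines, nor did that of silent modifiers (1.73 to 2.47 in WT and 3.65 to 4.27 in Mbd3 KO). Sums of auxiliary subunits (8.03 to 10.1 and 4.51 to 9.58) and of calcium- and sodium-activated channels (8.79 to 17.5 and 8.56 to 9.79) overlapped. A few genes carry each sum: Kcnh2 made up 48.9% of the voltage-gated sum in WT and 19.2% in Mbd3 KO, and Kcnn1 made up 86.6% of the calcium- and sodium-activated sum in WT while Kcnt1 led it in Mbd3 KO with 45.4%. Of the mean two-pore-domain sum of 35.9 CPM per kb in Mbd3 KO, Kcnk5, Kcnk1 and Kcnk6 held 12.4, 11.5 and 11.2. Among the 8 genes with the highest level in WT were Kcnh2 (17.9 ± 0.838 CPM per kb, SD, n = 3), Kcnn1 (11.2 ± 4.15), Kcnk1 (6.17 ± 0.799), Kcnk5 (5.81 ± 0.955), Kcnab2 (3.12 ± 0.471) and Kcnmb4 (1.99 ± 0.151). Kcnk1 and Kcnk5 differed by less than their SDs.

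Kcnh2 encodes the pore of the ERG channel, which repolarises the heart's action potential. It lies at chr5:23825407-23857422 on the minus strand in the mm9 build, to which all gene positions below refer. Its level was 85.1, 91.4 and 83.9 CPM in WT and 11.1, 19.96 and 21.1 CPM in Mbd3 KO, with no overlap. The log2 fold change was -2.32 ± 0.26 (SE, adjusted p = 1.6e-06), or 4.98-fold lower.

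Kcnh4 (chr11:100601690-100621256, minus strand), of the ELK branch of the same family, measured 7.86, 4.90 and 3.21 CPM in WT and 0.515, 0.376 and 0.529 CPM in Mbd3 KO. It fell by 3.49 ± 0.52 on the log2 scale (adjusted p = 2.2e-05), with all Mbd3 KO libraries below all WT libraries. Kcnh8, another ELK gene, fell by 2.62 ± 0.56 (adjusted p = 0.00059). In contrast, Kcnh3 had 0.242, 0.055 and 0.390 CPM in WT and 2.57, 3.34 and 3.33 CPM in Mbd3 KO, a rise of 3.72 ± 0.52 (adjusted p = 1.1e-05), so the 3 ELK genes did not move together.

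Kcnq1, a cardiac and epithelial channel whose locus holds an imprinted domain, measured 0.483, 0.523 and 0.657 CPM in WT and 0.858, 1.31 and 1.11 CPM in Mbd3 KO. These values did not overlap, but the difference of 0.97 ± 0.37 (adjusted p = 0.031) stayed under the size needed for a call.

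Kcnc1 (chr7:53651867-53693745, plus strand), which lets fast-spiking neurons repolarise quickly, measured 9.07, 8.86 and 2.73 CPM in WT and 2.94, 1.81 and 1.16 CPM in Mbd3 KO. It fell by 1.80 ± 0.48 (adjusted p = 0.0034), although the lowest WT library lay below the highest Mbd3 KO library. Kcnf1 (chr12:17178908-17183694, minus strand), a silent partner of Kcnb channels, fell by 1.94 ± 0.44 (adjusted p = 0.0011), from 3.14, 2.06 and 1.44 CPM to 0.314, 0.708 and 0.688 CPM.

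Several two-pore-domain and auxiliary genes were also lower. Kcnk10 (chr12:99672204-99816150, minus strand) encodes TREK-2, a leak channel opened by membrane stretch and lipids, and measured 6.76, 6.02 and 2.29 CPM in WT and 0.0286, 0.0885 and 0.0793 CPM in Mbd3 KO. The fitted fall was 6.16 ± 0.72 on the log2 scale (adjusted p = 2.2e-06), the lowest of the potassium channel genes. Kcnk10 had 1, 4 and 3 reads in the Mbd3 KO libraries, so the size of this fall rests on few reads. Its relative TREK-1, Kcnk2 (chr1:191031816-191167711, minus strand), measured 4.24, 2.75 and 2.19 CPM in WT and 0.257, 0.930 and 1.11 CPM in Mbd3 KO, and fell by 1.99 ± 0.56 (adjusted p = 0.0051). The first Mbd3 KO library stood apart on chromosome 1. Its median deviation from the other libraries of the line, relative to that over all well-measured genes, was -0.38 on the log2 scale there. That of the third Mbd3 KO library was 0.29, against a mean that includes the first library. The part of these deviations in the Kcnk2 result was not tested.

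Kcnab2 (chr4:151764851-151851980, minus strand), a cytoplasmic beta subunit of Kcna channels, measured 20.4, 16.5 and 15.3 CPM in WT and 3.66, 5.73 and 5.47 CPM in Mbd3 KO. It fell by 1.81 ± 0.29 (adjusted p = 4.9e-05). Kcnn1 (chr8:73365948-73380907, minus strand), a small-conductance calcium-activated channel of the afterhyperpolarisation, measured 63.3, 43.2 and 29.9 CPM in WT and 8.95, 11.8 and 14.5 CPM in Mbd3 KO. It fell by 1.95 ± 0.30 (adjusted p = 3.1e-05), and no libraries overlapped for either gene. Kcnmb4, the neuronal beta subunit of the BK channel, measured 7.11, 6.60 and 6.11 CPM in WT and 1.57, 5.71 and 6.29 CPM in Mbd3 KO, with only the first Mbd3 KO library low and no call (-0.54 ± 0.37, adjusted p = 0.21).

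**Figure D2:**
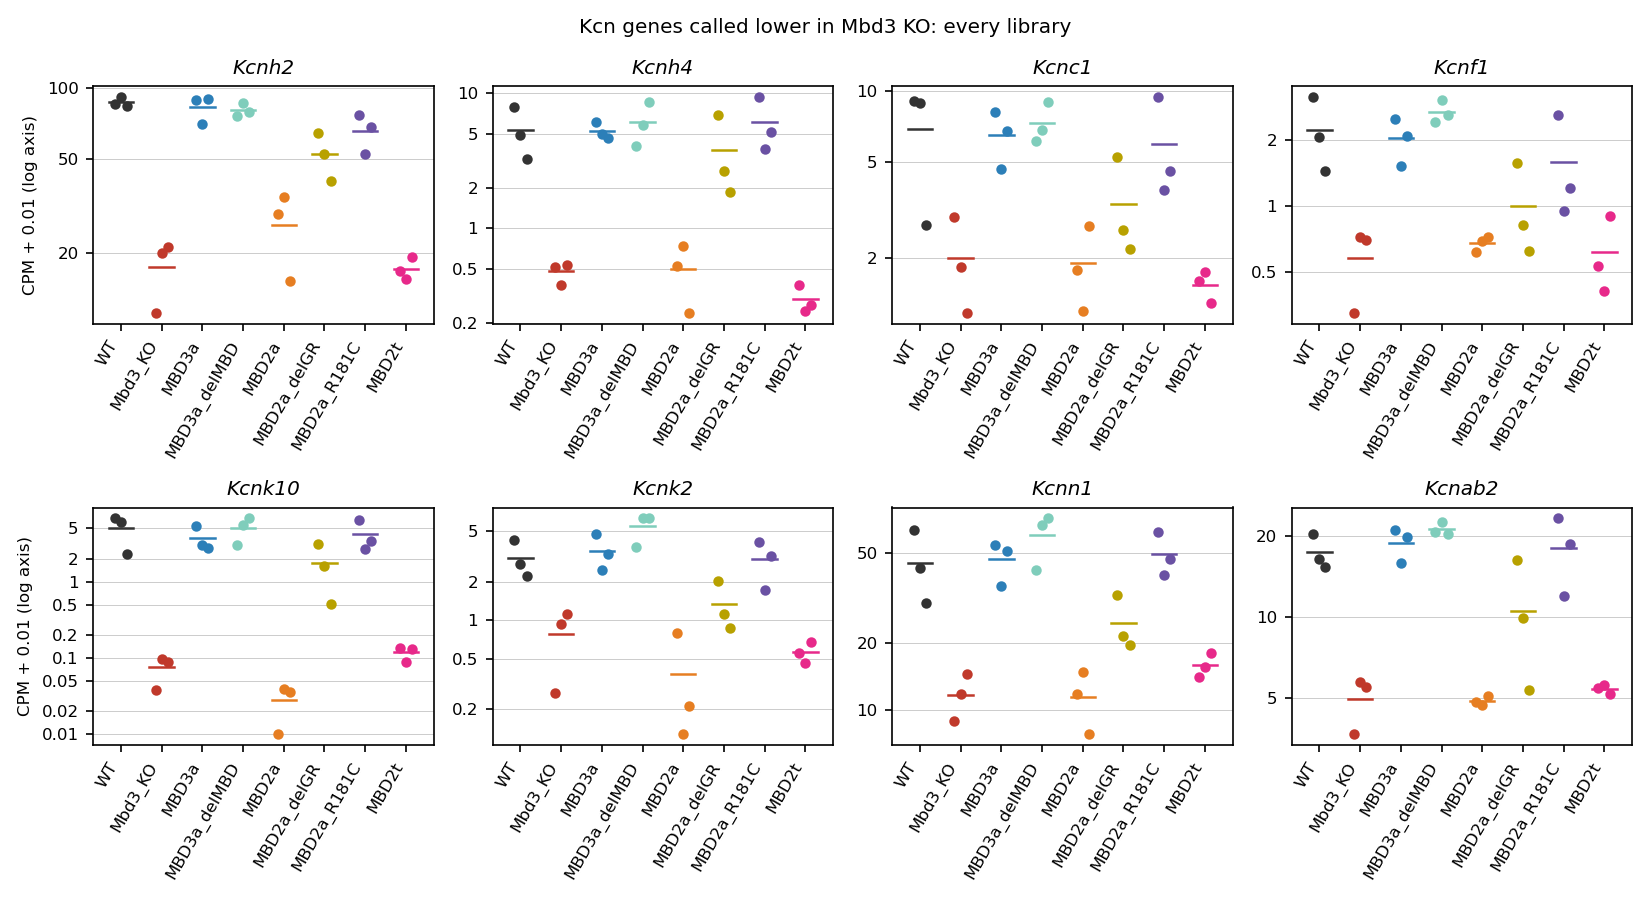
CPM plus 0.01 on a log axis in each of the 24 libraries for 8 genes called lower in Mbd3 KO (points are libraries, lines are line means; each panel has its own range). Mbd3_KO, MBD2a and MBD2t have lower line means than WT, MBD3a, MBD3a_delMBD and MBD2a_R181C in each panel, and MBD2a_delGR lies between for Kcnh2, at 64.5, 52.4 and 40.2 CPM.

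Among rises, Kcnt1 (chr2:25719315-25773793, plus strand), which encodes the sodium-activated channel Slack, measured 1.02, 1.57 and 1.70 CPM in WT and 31.3, 27.3 and 33.4 CPM in Mbd3 KO. It rose by 4.42 ± 0.34 on the log2 scale (adjusted p = 6.4e-08), or 21.4-fold. Kcnk6 (chr7:30006947-30017541, minus strand), a two-pore-domain channel of the TWIK group, measured 0.966, 2.15 and 3.26 CPM in WT and 64.8, 34.8 and 39.3 CPM in Mbd3 KO, a rise of 4.44 ± 0.84 (adjusted p = 2.0e-04). Both were low in WT and among the clearly measured genes in Mbd3 KO.

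Kcnk5 (chr14:20959280-21001004, minus strand), an acid-sensitive leak channel of epithelia, was already high in WT, at 16.9, 18.6 and 23.1 CPM, and measured 55.1, 38.4 and 31.6 CPM in Mbd3 KO. It rose by 1.09 ± 0.20 (adjusted p = 0.00015) and lost its call without the first Mbd3 KO library or the first WT library, where the change was under 1. Kcnk1, the TWIK-1 gene, had 12.3, 15.9 and 14.4 CPM in WT and 20.9, 28.9 and 29.4 CPM in Mbd3 KO, without overlap but with a difference of 0.89 ± 0.26 (adjusted p = 0.0062) that was too small for a call.

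The inward rectifiers Kcnj4 and Kcnj12, both of the strongly rectifying Kir2 group that holds the resting potential, rose together. Kcnj4 (chr15:79314148-79335671, minus strand) measured 2.42, 2.50 and 3.65 CPM in WT and 9.63, 12.1 and 10.7 CPM in Mbd3 KO (1.92 ± 0.28, adjusted p = 1.9e-05). Kcnj12 (chr11:60836066-60884633, plus strand) measured 0.939, 1.13 and 2.39 CPM in WT and 7.35, 4.47 and 4.50 CPM in Mbd3 KO (1.87 ± 0.49, adjusted p = 0.0032). Kcnj2, another Kir2 gene, had 4.51, 7.01 and 3.12 CPM in WT and 0.772, 3.98 and 2.96 CPM in Mbd3 KO and was not called (-0.92 ± 0.52, adjusted p = 0.14).

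Both A-type channels of the Kcnd family that were called rose. Kcnd1 (chrX:7399415-7415406, plus strand) measured 4.62, 4.70 and 4.46 CPM in WT and 16.01, 12.5 and 11.03 CPM in Mbd3 KO (1.52 ± 0.21, adjusted p = 1.2e-05). Kcnd2 (chr6:21165503-21679805, plus strand), the main somatodendritic A-type channel of neurons, measured 1.74, 1.21 and 0.243 CPM in WT and 1.89, 5.71 and 5.13 CPM in Mbd3 KO (2.00 ± 0.76, adjusted p = 0.031). The Kcnd2 call was lost in 5 of its 9 alternatives, among them the fit without the third WT library (log2 fold change 1.52).

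Silent subunits that rose were Kcng4 (1.62 ± 0.42, adjusted p = 0.0032), Kcns3 (1.66 ± 0.43, adjusted p = 0.0030), Kcng1 (1.22 ± 0.52, adjusted p = 0.049) and Kcng3 (2.28 ± 0.43, adjusted p = 0.00018). Kcng4 (chr8:122147754-122159580, minus strand) measured 1.26, 1.10 and 0.633 CPM in WT and 3.72, 3.34 and 2.14 CPM in Mbd3 KO. Kcns3 (chr12:11097008-11157648, minus strand) measured 0.537, 0.908 and 0.657 CPM in WT and 1.86, 2.17 and 2.62 CPM in Mbd3 KO. Kcng1 (chr2:168085617-168107236, minus strand) measured 1.66, 2.50 and 2.73 CPM in WT and 4.20, 5.55 and 6.32 CPM in Mbd3 KO, without overlap, but lost its call without any 1 of these 6 libraries. Kcnma1 (chr14:24117983-24622526, minus strand), the pore of the BK channel, measured 1.88, 1.49 and 0.317 CPM in WT and 2.72, 3.81 and 3.02 CPM in Mbd3 KO (2.6-fold higher, adjusted p = 0.028). It was not called without the third WT library (log2 fold change 0.92) or without the second Mbd3 KO library.

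**Figure D3:**
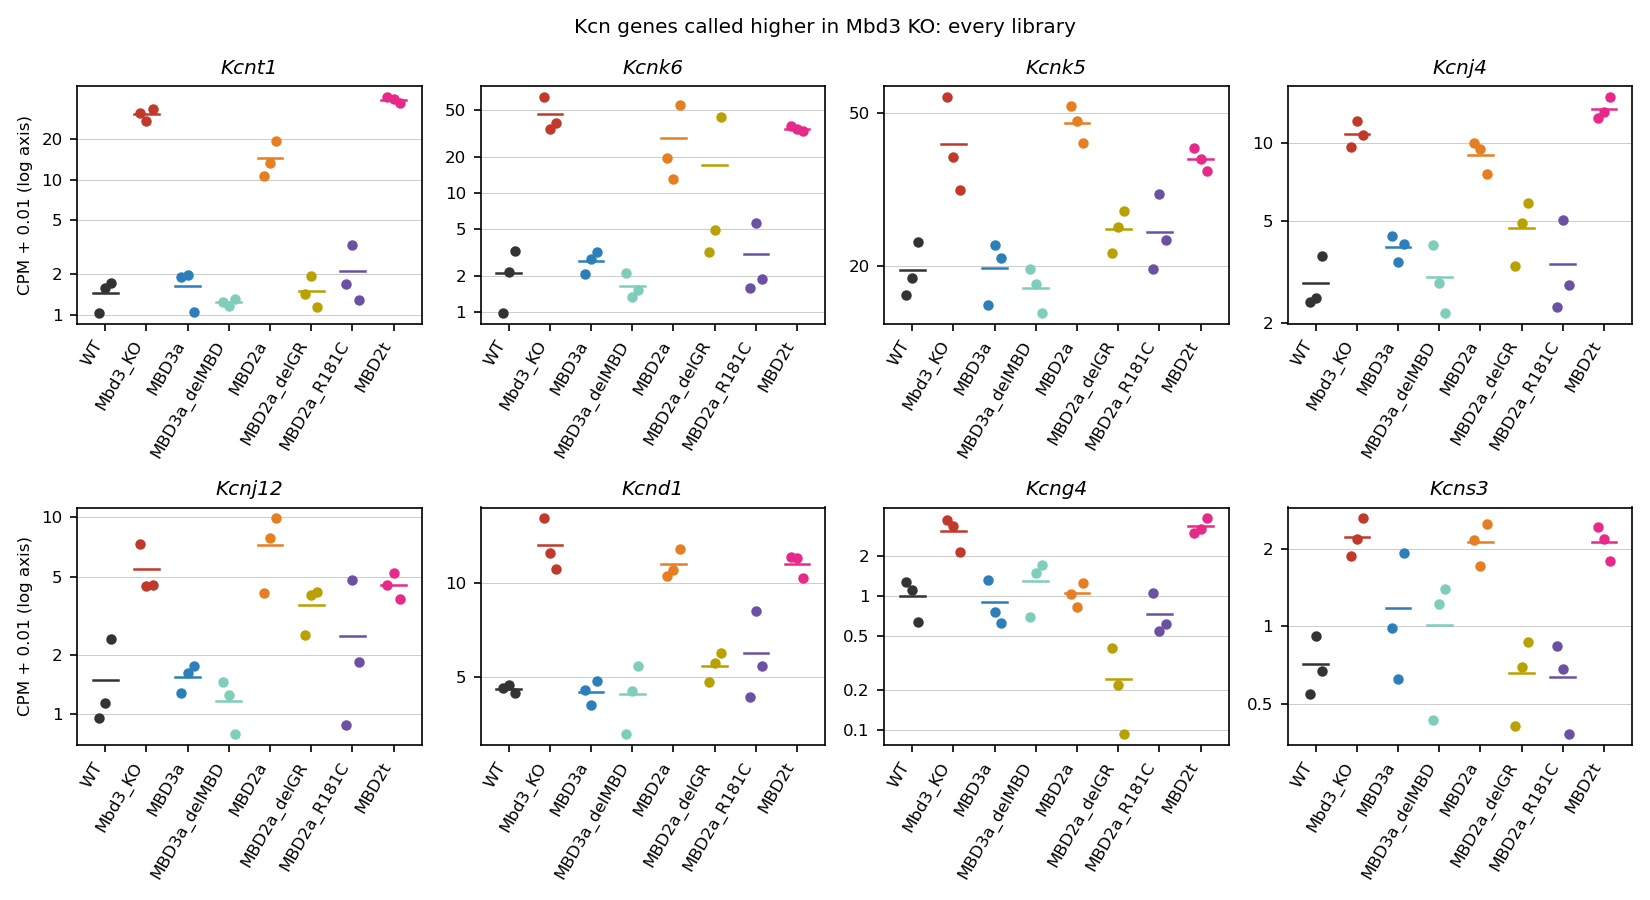
CPM plus 0.01 on a log axis in each of the 24 libraries for 8 genes called higher in Mbd3 KO (points are libraries, lines are line means; each panel has its own range). Kcnt1 reaches 36.8 to 41.1 CPM in MBD2t and 10.5 to 19.4 CPM in MBD2a, and 1 MBD2a_delGR library stands apart for Kcnk6 at 44.1 CPM.

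Some genes turned on the first Mbd3 KO library. Kcnip1, a calcium-sensing partner of Kcnd channels, measured 0.172, 3.08 and 3.17 CPM in Mbd3 KO and 0.349, 0.275 and 0.0487 CPM in WT, so that 1 Mbd3 KO library lay within the WT range although the gene was called higher (3.26 ± 0.95, adjusted p = 0.0065). Kcnmb2, a BK beta subunit that inactivates the channel, measured 0.0572, 4.63 and 4.39 CPM in Mbd3 KO and 1.32, 1.05 and 0.268 CPM in WT and was not called (1.79 ± 0.82, adjusted p = 0.066). The median range between the 3 libraries of a line over the 74 genes was 0.963 on the log2 scale in Mbd3 KO, 1.06 in WT and 0.432 in MBD2t.

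The next comparisons asked whether a construct returned these genes to their level in WT. In MBD3a 0 of 74 potassium channel genes were called against WT (background 0% of all genes), with 1 at an unadjusted p under 0.05, and in MBD3a_delMBD also 0 (background 0%), with 1 at an unadjusted p under 0.05. MBD2a_R181C had 0 calls (background 0.00603%), with 2 at an unadjusted p under 0.05. edgeR and DESeq2 both gave these counts of 0 called. The backgrounds are shares of all genes called, and shares at an unadjusted p under 0.05 are not given here. Against Mbd3 KO the same 3 lines had 39 genes called in MBD3a (19 higher, 20 lower against a background of 31.8%, 13.3% higher and 18.5% lower), 40 in MBD3a_delMBD (20 higher, 20 lower against a background of 35.6%, 14.8% higher and 20.8% lower) and 40 in MBD2a_R181C (18 higher, 22 lower against a background of 29.8%, 12.8% higher and 17% lower).

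Levels of the leading genes illustrate this. Kcnh2 measured 88.6, 70.0 and 89.3 CPM in MBD3a, 75.7, 86.5 and 79.1 CPM in MBD3a_delMBD and 76.3, 52.2 and 68.3 CPM in MBD2a_R181C. Against WT its log2 difference was -0.07 ± 0.25, -0.11 ± 0.25 and -0.40 ± 0.25 in the same order. Kcnt1 measured 1.89, 1.95 and 1.04 CPM in MBD3a, 1.22, 1.15 and 1.29 CPM in MBD3a_delMBD and 1.68, 3.27 and 1.27 CPM in MBD2a_R181C. Its differences from WT were 0.18 ± 0.32, -0.23 ± 0.33 and 0.53 ± 0.32. A difference that misses the threshold does not show equal levels.

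**Figure D4:**
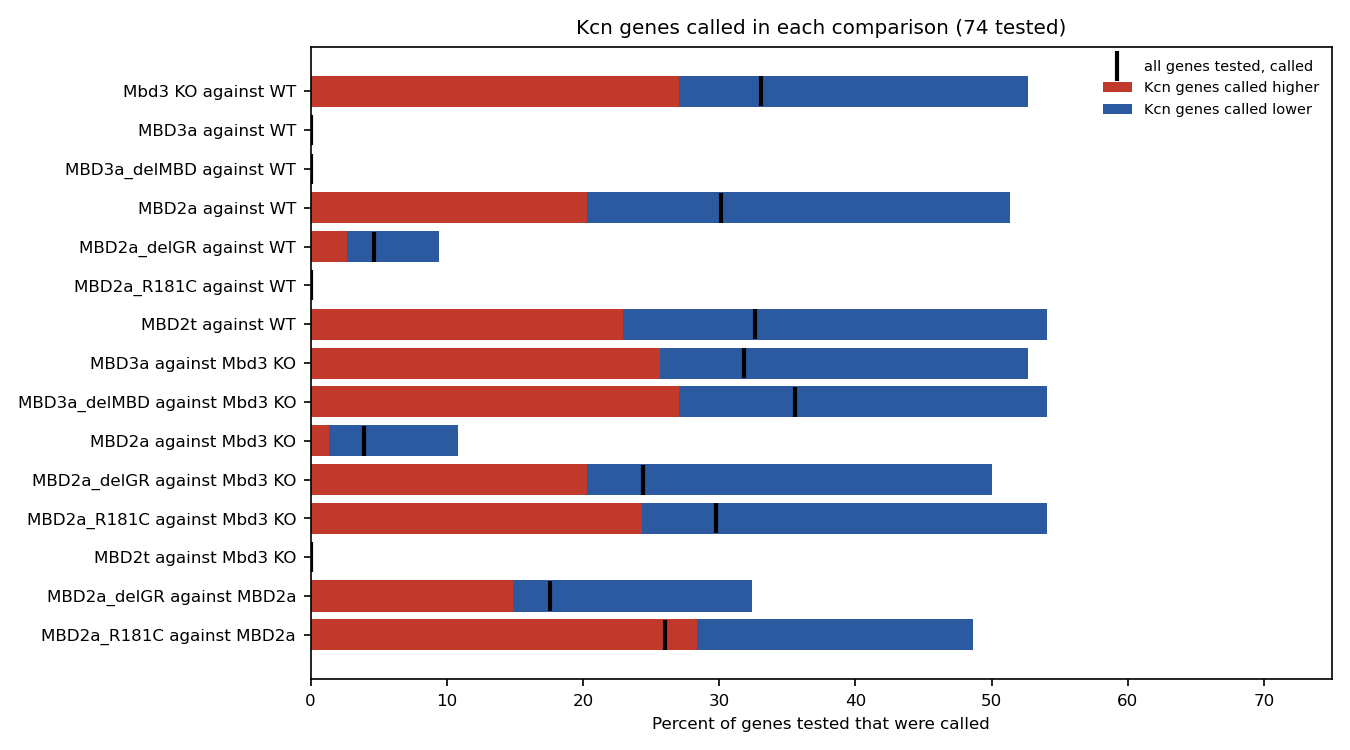
Percent of the 74 tested potassium channel genes called higher (red) and lower (blue) in each of 15 comparisons, 3 libraries per line; the black tick is the percent of all 16582 genes tested that were called. Bars are at 52.7% for Mbd3 KO against WT, and at 0% for MBD3a, MBD3a_delMBD and MBD2a_R181C against WT and for MBD2t against Mbd3 KO.

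MBD2t was compared with WT and with Mbd3 KO. Against WT 40 potassium channel genes were called (17 higher, 23 lower against a background of 32.6%, 17.7% higher and 14.9% lower). Voltage-gated pore subunits had 6 higher and 14 lower of 28, with a median of -0.91 on the log2 scale. Against Mbd3 KO 0 were called (background 0.00603%), with 5 at an unadjusted p under 0.05, and DESeq2 also called 0. This background is the share of all genes called, and no share at an unadjusted p under 0.05 is given here.

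Kcnt1 was at 41.1, 39.3 and 36.8 CPM in MBD2t (4.77 ± 0.35 against WT, adjusted p = 4.8e-08; 0.35 ± 0.29 against Mbd3 KO). Kcnh4 was at 0.374, 0.239 and 0.263 CPM (-4.17 ± 0.54 against WT, adjusted p = 6.1e-06), and Kcnh2 was at 16.7, 15.5 and 19.1 CPM (-2.34 ± 0.26, adjusted p = 1.6e-06). Kcnip1, at 0.936, 0.557 and 0.829 CPM, and Kcnmb2, at 0.977, 1.30 and 1.03 CPM, lay between the low and the high libraries of Mbd3 KO. The comparisons of Mbd3 KO and MBD2t share the WT libraries, and the libraries of MBD2t repeat 1 clone, while the p-values use a spread estimated over all 8 lines.

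MBD2a against WT had 38 potassium channel genes called (15 higher, 23 lower against a background of 30.1%, 16.5% higher and 13.7% lower). Auxiliary subunits had 1 higher and 6 lower of 11, with a median of -1.53 on the log2 scale, while the same 11 genes had 3 higher and 2 lower in Mbd3 KO against WT. Compared directly between MBD2a and Mbd3 KO, only Kcnip1, Kcnmb1 and Kcnmb2 of these 11 were called, all lower in MBD2a (below). Voltage-gated pore subunits had 4 higher and 10 lower of 28, with a median of -0.64. These comparisons share the WT libraries.

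In MBD2a, Kcnh2 measured 29.2, 34.3 and 15.2 CPM (-1.73 ± 0.26 against WT, adjusted p = 3.3e-05). Kcnk10 had 0, 0.0295 and 0.0255 CPM, which is 2 reads against 565 in WT, a ratio of 266 with a 95% counting interval of 73.3 to 2200. That interval covers counting error over pooled libraries, not the spread between them. Kcnk6 measured 19.6, 13.2 and 55.0 CPM (3.78 ± 0.82, adjusted p = 0.00085), and Kcns1, a silent subunit, 0.835, 0.412 and 4.26 CPM. For both genes the third MBD2a library was the highest, and that library also had a relative deviation of -0.37 on the log2 scale over chromosome 1.

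Of the 74 genes, 8 were called in MBD2a against Mbd3 KO (1 higher, 7 lower against a background of 3.9%, 0.706% higher and 3.19% lower). Kcnt2 (chr1:142142793-142508640, plus strand), the second sodium-activated channel, was the gene that rose, with 7.28, 3.95 and 3.77 CPM in MBD2a and 0.829, 1.70 and 1.64 CPM in Mbd3 KO (1.84 ± 0.30, adjusted p = 0.00099). It was also called against WT, at 1.93, 1.71 and 2.36 CPM (1.32 ± 0.29, adjusted p = 0.00097). Its relative Kcnt1 lay between the lines, at 10.5, 13.3 and 19.4 CPM, and was lower than in Mbd3 KO (-1.09 ± 0.29, adjusted p = 0.031) and higher than in WT (3.33 ± 0.33, adjusted p = 9.4e-07). Kcnt2 lies on chromosome 1, where relative deviations were -0.38 and 0.29 on the log2 scale in the first and the third Mbd3 KO library. The value of 0.29 is against a mean that includes the first library. The third MBD2a library deviated on chromosome 1 by -0.37, and the part of these deviations in the Kcnt2 result was not tested.

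The other 6 that were lower than in Mbd3 KO were Kcnmb2 (-4.24 ± 0.96, adjusted p = 0.011), Kcnip1 (-3.42 ± 0.96, adjusted p = 0.038), Kcnmb1 (-2.37 ± 0.57, adjusted p = 0.018), Kcnj2 (-2.33 ± 0.57, adjusted p = 0.018), Kcng4 (-1.56 ± 0.42, adjusted p = 0.031) and Kcnh6 (-1.54 ± 0.43, adjusted p = 0.035). Kcnj2 (chr11:110927478-110938135, plus strand) measured 0.863, 0.295 and 0.382 CPM in MBD2a, overlapping the first Mbd3 KO library at 0.772 CPM, and was also below WT (-3.24 ± 0.58, adjusted p = 0.00017). Kcng4, at 1.04, 0.825 and 1.25 CPM, lay within the WT range of 0.633 to 1.26 CPM. Kcnh6 (chr11:105869438-105895863, plus strand), an ERG-family gene, measured 0.518, 0.560 and 0.917 CPM against 1.11, 1.48 and 3.23 CPM in Mbd3 KO. Kcnmb2 (chr3:31801429-32099102, plus strand) measured 0.173, 0.118 and 0.178 CPM in MBD2a, which lay above the first Mbd3 KO library. None of the 8 calls held under all alternatives that tested them, and in a fit of only these 2 lines 0 were called. The share of all genes called in that fit is not given here.

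Kcnmb1 and Kcnip1 overlap in the genome: Kcnmb1 (chr11:33863013-33873641, plus strand), the smooth muscle beta subunit of the BK channel, lies within the span of Kcnip1 (chr11:33529339-33893152, minus strand), and their annotated exons do not overlap. Kcnmb1 had 0.188, 0.193 and 0.0974 CPM in WT, 0.200, 0.155 and 0.264 CPM in Mbd3 KO, 0.0288, 0.0295 and 0.0510 CPM in MBD2a, 0 in all 3 MBD2a_delGR libraries, and 0.291, 0.212 and 0.243 CPM in MBD2t. These levels rest on 18 reads in WT and 24 in Mbd3 KO.

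MBD2a_delGR against WT had 7 potassium channel genes called (2 higher, 5 lower against a background of 4.63%, 2.45% higher and 2.18% lower). The third MBD2a_delGR library stood apart: its extraembryonic endoderm markers summed to 3353 CPM, against 268 CPM in the lowest library of the line and 142 to 189 CPM in WT. The 2 higher genes followed that library. Kcnk6 measured 3.19, 4.88 and 44.1 CPM (3.03 ± 0.80, adjusted p = 0.030) and Kcnk12 (chr17:88145177-88197334, minus strand), a silent member of the THIK group, 0.307, 0.298 and 3.93 CPM (2.85 ± 0.83, adjusted p = 0.043). Without that library their log2 differences were 0.92 and 0.54 and neither was called. The Kcnk6 call was also lost without the first or the second WT library, and the Kcnk12 call without any 1 of the WT libraries. Kcng1 was also highest there, at 13.2 CPM against 2.24 and 1.88 CPM, and was not called (1.33 ± 0.52, adjusted p = 0.11).

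The 5 lower genes were Kcnmb1, Kcne3, Kcng4, Kcna6 and Kcnn3. Kcne3 (chr7:107327207-107333374, plus strand), an auxiliary subunit of Kcnq1 channels in epithelia, measured 0.0921, 0.0893 and 0.111 CPM against 1.21, 0.798 and 0.682 CPM in WT (-3.15 ± 0.58, adjusted p = 0.0054). Kcng4 measured 0.399, 0.208 and 0.0831 CPM, below all WT libraries (-2.11 ± 0.48, adjusted p = 0.020), while it rose in Mbd3 KO. Kcna6 (chr6:126658347-126690680, minus strand), a Shaker-family channel whose exons overlap an antisense long noncoding RNA, measured 1.60, 1.22 and 0.969 CPM against 4.78, 2.53 and 2.73 CPM in WT (-1.40 ± 0.36, adjusted p = 0.027). Kcnn3 (chr3:89324086-89471683, plus strand) measured 0.276, 0.655 and 0.249 CPM against 1.29, 1.13 and 0.536 CPM in WT, with overlap (-1.31 ± 0.36, adjusted p = 0.036). Kcnmb1 was at least 5.35-fold lower than in WT, counting 3 reads over the 3 MBD2a_delGR libraries as the limit for 0. In a fit of only these 2 lines 0 of the 74 were called, and the count was 2 without the third MBD2a_delGR library, 2 and 3 without the first and the second WT library, 11 without the third WT library, and 16 without the first MBD2a_delGR library. Shares of all genes called in those fits are not given here.

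Against Mbd3 KO, MBD2a_delGR had 37 genes called (15 higher, 22 lower against a background of 24.4%, 9.84% higher and 14.6% lower). The largest rises were Kcnk10, at 3.16, 1.61 and 0.499 CPM (4.64 ± 0.71, adjusted p = 5.0e-05), Kcnb2 (chr1:15302533-15701710, plus strand), at 0.952, 0.804 and 0.277 CPM against 0, 0.0885 and 0.106 CPM in Mbd3 KO (3.27 ± 0.77, adjusted p = 0.0020), and Kcnh4, at 6.82, 2.62 and 1.86 CPM (2.99 ± 0.52, adjusted p = 0.00015). For Kcnb2, the part of the deviations of Mbd3 KO libraries on this chromosome (above) was not tested. In the Mbd3 KO libraries Kcnk10 had 1, 4 and 3 reads and Kcnb2 had 0, 4 and 4, so the sizes of these rises rest on few reads. The largest falls were Kcnip1, Kcnmb1 and Kcnt1. Kcnip1 had 3 reads against 265 in Mbd3 KO, a ratio of 76.6 with a 95% counting interval of 25.9 to 374. The Mbd3 KO libraries had 6, 139 and 120 of these reads. The interval covers counting error over pooled libraries, not the spread between them. Kcnmb1 was at least 6.93-fold lower on the same limit of 3 reads over the line. Kcnt1 measured 1.41, 1.94 and 1.14 CPM (-4.36 ± 0.34, adjusted p = 8.2e-08).

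For Kcnh2, MBD2a_delGR lay between Mbd3 KO and WT. Kcnh2 at 64.5, 52.4 and 40.2 CPM did not overlap WT (-0.73 ± 0.25, adjusted p = 0.079) and rose by 1.59 ± 0.26 over Mbd3 KO (adjusted p = 8.6e-05). For both Kcnh2 and Kcnk10 the third MBD2a_delGR library was the lowest of the line, and neural progenitor markers of the line spanned 900 to 1816 CPM.

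The lines with changed MBD2 were compared directly with MBD2a. They also had more Mbd2 RNA than MBD2a (above), so in these RNA data the changed protein and the level of the construct cannot be told apart. By western blot in ESCs, the study reported equal protein levels for MBD2a and MBD2a_delGR. In MBD2a_delGR 24 potassium channel genes were called (11 higher, 13 lower against a background of 17.6%, 8.05% higher and 9.56% lower) and in MBD2a_R181C 36 (21 higher, 15 lower against a background of 26%, 12% higher and 14% lower). Kcnt1 was lower in both (-3.27 ± 0.33, adjusted p = 4.0e-06, and -2.80 ± 0.32, adjusted p = 3.9e-06). Kcnh4 was higher in both (2.93 ± 0.52, adjusted p = 0.00041, and 3.63 ± 0.53, adjusted p = 3.2e-05). Kcnk6 was lower in MBD2a_R181C, at 1.57, 5.61 and 1.88 CPM (-3.28 ± 0.80, adjusted p = 0.0025), and in MBD2a_delGR the difference was -0.75 ± 0.72 (adjusted p = 0.44). The MBD2a_delGR libraries had 104, 164 and 1591 Kcnk6 reads, the third standing apart (above). Both comparisons share the MBD2a libraries. In a fit of only the 2 lines, 11 genes were called for MBD2a_delGR and 28 for MBD2a_R181C, and without the first MBD2a_delGR library 12 were called for that line. Shares of all genes called in those fits are not given here, so these drops cannot be read as particular to potassium channel genes.

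**Figure D5:**
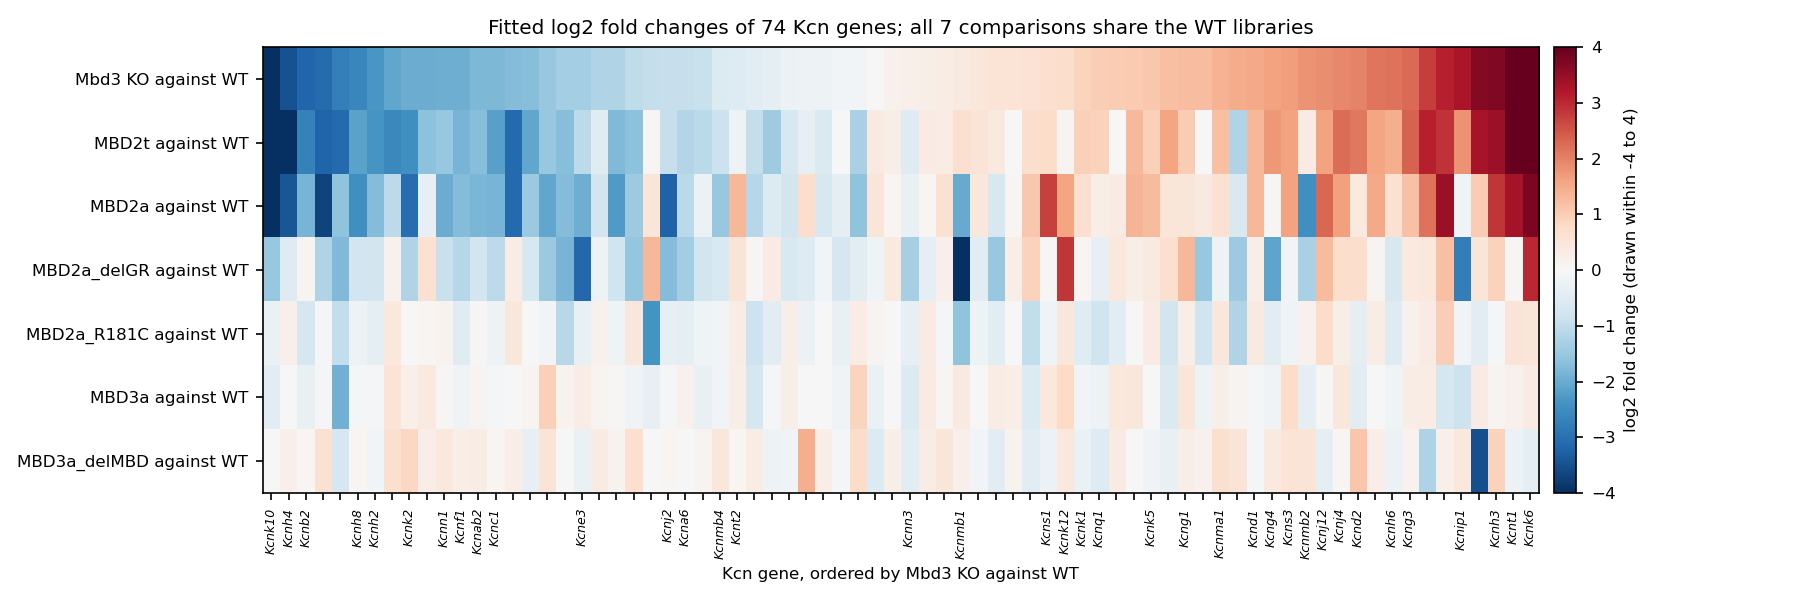
Fitted log2 fold changes of the 74 tested potassium channel genes (columns, ordered by Mbd3 KO against WT, with names for genes described in the text) in 7 lines against the same WT libraries (rows), with colour limits at -4 and 4. Mbd3 KO, MBD2t and MBD2a are coloured at both ends, the rows of MBD3a, MBD3a_delMBD and MBD2a_R181C are pale over most genes, and MBD2a_delGR has single dark genes such as Kcnmb1, Kcne3, Kcnk12 and Kcnk6.

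Other genes of excitability were read from fixed lists in Mbd3 KO against WT, where 33.1% of all genes were called (19% higher, 14.1% lower). Of 12 voltage-gated sodium channel genes tested, 4 were higher and 7 lower, with a median of -1.69 on the log2 scale. The neuronal pore genes Scn3a (-4.69 ± 0.74, adjusted p = 3.4e-05) and Scn8a (-3.18 ± 0.38, adjusted p = 2.8e-06) were lower. Of 17 voltage-gated calcium channel genes, 1 was higher and 6 lower (median -0.73). Of 6 pacemaker and cyclic nucleotide-gated channel genes, 2 were higher and 1 lower, Hcn2 rising by 2.99 ± 0.28 and Hcn3 falling by 2.47 ± 0.37 on the log2 scale. Of 14 potassium pump and cotransporter genes, 6 were higher and 1 lower, the neuronal chloride extruder Slc12a5 (-1.64 ± 0.30, adjusted p = 0.00015). Of 8 partner subunits outside the Kcn symbols, Abcc8, the sulfonylurea receptor of ATP-sensitive channels, was higher (1.58 ± 0.33, adjusted p = 0.00056) and Dpp6, a partner of Kcnd channels, lower (-1.30 ± 0.49, adjusted p = 0.029).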

How the data were processed

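The authors sequenced poly(A) RNA from NPCs, trimmed reads with Trim Galore, mapped them to mm9 with STAR and deposited raw read counts per gene. The strand setting of their counting is not given in the sources used here, and 9 potassium channel genes have exons that overlap an opposite-strand gene (among them Kcna6, Kcnab3, Kcnd3, Kcnh7, Kcnj13, Kcnj3, Kcnmb4 and Kcnq5). Columns of the table carry a line but no replicate number. The ChIP samples of the series were not used here.

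From the deposited counts, edgeR 4.0.16 in R 4.3.3 was used with filterByExpr, TMM scaling and a quasi-likelihood F test in 1 fit over all 24 libraries and 16582 genes, with Benjamini-Hochberg adjustment over all of them. Called genes had an adjusted p below 0.05 and moved by more than 1 on the log2 scale. The SE was taken as the size of the log2 fold change over the root of its F statistic. CPM were TMM-scaled, 3 reads corresponding to 0.0607 to 0.115 CPM per library, and counting intervals cover counting error only. The fit was tested on simulated counts. DESeq2 1.42.0, RLE scaling, no filter, fits of 2 lines only and each library left out were the alternatives. Positions are from the GENCODE annotation of mm9, promoters from RefSeq.

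Named genes were the 10 largest rises and falls in Mbd3 KO whose log2 CPM averaged 0 or more, the 8 highest genes per length in WT, all genes called where 10 or fewer were called, otherwise the 3 largest rises and falls of MBD2a_delGR against Mbd3 KO, and Kcnq1. Kcnh3, Kcnh8, Kcng3, Kcns1 and the Kcnk10 value in Mbd3 KO were added after their values were seen. The genes and lists were chosen with earlier results of these data known. Some named genes are not reported here.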

Additional observations from a re-analysis of the deposited data

How the results depend on the processing

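The number of potassium channel genes called stayed within 1.5 times its main value under RLE scaling, no filter on low counts and DESeq2 in all 15 comparisons. In fits of only the 2 lines compared it moved for MBD2a_delGR against WT (7 to 0), MBD2a against Mbd3 KO (8 to 0), MBD2a_delGR against Mbd3 KO (37 to 20) and MBD2a_delGR against MBD2a (24 to 11). Fewer samples and fewer genes enter such a fit, and it takes the spread from its 2 lines alone. The part of each in the lost calls was not tested. Shares of all genes called under the alternatives are not given here, so lost calls cannot be read as particular to potassium channel genes. Over the 74 genes the median log2 range within a line was 1.21 in MBD2a_delGR and 0.432 in MBD2t. Detection was 74 genes by the filter and 41 by at least 1 CPM in all 3 libraries of a line. Leaving out each library in turn gave 31 to 40 for Mbd3 KO against WT, 31 to 38 for MBD2a, 33 to 40 for MBD2t, 2 to 16 for MBD2a_delGR and 0 for MBD3a, MBD3a_delMBD and MBD2a_R181C against WT. Against Mbd3 KO it gave 34 to 38 for MBD3a, 36 to 41 for MBD3a_delMBD, 2 to 10 for MBD2a, 28 to 36 for MBD2a_delGR, 34 to 38 for MBD2a_R181C and 0 for MBD2t. Against MBD2a it gave 12 to 28 for MBD2a_delGR and 24 to 42 for MBD2a_R181C. For MBD2a against Mbd3 KO the count was 4 and 3 without the second and the third Mbd3 KO library, and 4 and 2 without the first and the second MBD2a library. No named gene changed sign. No paired analysis was possible because the columns of the count table carry no replicate number. Genes under about 0.1 CPM rest on few reads, and differences there were often not detectable at this depth.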
